A study of Macaca mulatta with 4 samples.

Results

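Natural killer (NK) cells were followed in the blood of rhesus macaque before immunosuppression, after it, and after transplantation of human pluripotent stem cell-derived islets (hCiPSC-islets). The members are the 1195 cells to which the authors gave the label NK cell, out of 6993 labelled cells in all. They were 257 of 1928 cells in the Pre-IS library, 9 of 603 in the Post-IS library, 270 of 1882 at 4 weeks post-transplantation (4 wpt) and 659 of 2580 at 8 wpt. Pre-IS blood was drawn before immunosuppression. Post-IS blood was drawn after immunosuppression and ahead of the graft. The labels of the 4 wpt and 8 wpt libraries give the time after transplantation only, and no label names the drugs, their doses, the age of the macaques or whether the 4 libraries came from the same macaque. The material was peripheral blood mononuclear cells, measured by single-cell RNA sequencing from the 5' end of transcripts, with 1 library per group.

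NK cells are innate lymphocytes that kill virus-infected, transformed or foreign cells without prior sensitisation. Activating receptors such as NKp46, NKG2D and CD16 signal through adaptor proteins, inhibitory receptors that read MHC class I oppose them, and the balance decides whether granules with perforin, granzymes and granulysin are released. In blood, less mature NK cells carry the interleukin-7 receptor, while mature NK cells carry CD16 and the tissue homing receptor CX3CR1. NK cells are of interest in transplantation because they can attack grafts whose MHC class I molecules do not engage their inhibitory receptors.

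Each count is a unique molecular identifier (UMI), standing for 1 captured RNA molecule. The NK cells held 436342 UMIs in Pre-IS, 1049118 at 4 wpt and 1195332 at 8 wpt, with a median of 1614, 3943 and 1758 UMIs per cell. The 4 wpt cells were thus the deepest. The 9 Post-IS cells held 17563 UMIs, too few for gene levels, and are used for the share of cells alone. Gene levels are the UMIs of a gene summed over the NK cells of a library, divided by all UMIs of those cells and scaled to counts per 1000000 (CPM). Because each group is a single library, no test between groups was possible, and no difference could be set against a spread between replicates. All intervals are exact 95% intervals that cover counting error only. Cells of 1 library share their source and are no replicates. Over all pairs of libraries 25 cell barcodes occurred in both, and none of these was an NK cell in both.

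The label was set beside 5 defining NK genes, KLRF1 (the receptor NKp80), NCR1 (NKp46), KLRD1 (CD94), NKG7 (a granule protein) and FCER1G (an Fc receptor adaptor chain). Labels of this kind are made from the same counts, so this is a description and no independent check. At least 2 of the 5 had UMIs in 257 of 257 Pre-IS cells, 8 of 9 Post-IS cells, 268 of 270 cells at 4 wpt and 656 of 659 at 8 wpt. Among cells labelled T cell the same held for 26.6%, 7.83%, 22.7% and 34.2%, in the same order. FCER1G alone does not separate NK cells, since it is also a monocyte gene. UMIs of another cell class were counted as at least 2 of the T cell genes CD3D, CD3E and CD3G, 2 of 3 B cell genes, or 3 monocyte genes. This held for 28 NK cells in Pre-IS (10.9%), 2 of 9 in Post-IS (22.2%), 56 at 4 wpt (20.7%) and 68 at 8 wpt (10.3%), nearly always through the CD3 genes (25, 2, 52 and 64 cells). Among the 3 libraries with over 9 NK cells, the deepest thus had the largest share of such cells, and the part of depth in it was not tested.

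Summed over 12 T cell markers, NK cells held 596 CPM in Pre-IS, 516 at 4 wpt and 596 at 8 wpt, against 4305, 3965 and 4196 CPM in T cells. CD28 was at 0 in NK cells of all 3 libraries. The 10 B cell markers summed to 80.2, 61.0 and 53.5 CPM and 13 monocyte markers to 41.3, 52.4 and 44.3 CPM, with the monocyte genes CSF1R, C1QA and C1QB at 0 throughout. Red cell markers were uneven, with 206 CPM in Pre-IS, 654 at 4 wpt and 275 at 8 wpt. Hemoglobin took 77 UMIs in Pre-IS NK cells, 1270 at 4 wpt and 658 at 8 wpt, but 1158 of the 4 wpt UMIs lay in 2 cells and 512 of the 8 wpt UMIs in 3 cells.

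Genes that set NK cells apart from every other label with at least 50 cells are given as a description, since labels of this kind are made from the same counts. The largest ratio, taken in the library where it was lowest, belonged to a row without a symbol, ENSMMUG00000050862, at 3002 CPM in Pre-IS, 3169 at 4 wpt and 4777 at 8 wpt. It was followed by CMC1, a mitochondrial assembly factor gene, whose NK level was at least 22.2 times that of the next label. Granulysin (GNLY) was at least 10.2 times, the T-box factor EOMES 7.78 times, granzyme A (GZMA) 7.75 times and the lectin receptor KLRB1 6.75 times above the next label in each of the 3 libraries. The chymase gene CMA1 (6.58 times), the chemokine XCL1 and NCR1 also stood among the first 10. Killing genes, the receptor NKp46 and EOMES thus marked these cells at all 3 times.

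Of all labelled cells, NK cells made up 13.3% in Pre-IS (interval 11.8 to 14.9) and 1.49% in Post-IS (interval 0.685 to 2.81). After transplantation they made up 14.3% at 4 wpt (interval 12.8 to 16.0), then 25.5% at 8 wpt (interval 23.9 to 27.3). NK cells were thus scarce in the Post-IS library, near the Pre-IS share at 4 wpt and most frequent at 8 wpt. A share depends on all the other cells, and monocytes were 76.3% of the Post-IS library. Counted among lymphocytes alone, NK cells were 16.4% in Pre-IS, 6.47% in Post-IS (3.0 to 11.9), 20.3% at 4 wpt and 30.8% at 8 wpt. With that denominator the Post-IS share was 2.53-fold below the Pre-IS share, and the interval of the Post-IS share still lay below that of Pre-IS (14.6 to 18.3).

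Set against T cells, there were 0.306 NK cells per T cell in Pre-IS, 0.0783 in Post-IS, 0.304 at 4 wpt and 0.561 at 8 wpt. Relative to T cells, NK cells at 4 wpt were therefore back at the Pre-IS ratio, and the 8 wpt library held more. Against B-lineage cells the order differed, with 0.557, 0.692, 2.11 and 2.38 NK cells per B-lineage cell. The Post-IS value rests on 9 NK and 13 B-lineage cells, and its interval (0.261 to 1.75) held the Pre-IS value. Per monocyte there were 0.776, 0.0196, 0.520 and 1.60 NK cells. The Post-IS library thus had fewer NK cells per T cell and per monocyte than Pre-IS, while the ratio to B-lineage cells could not be told from that of Pre-IS at this cell number. Leaving out NK cells with UMIs of another class gave 12.1% of cells in Pre-IS (10.6 to 13.6), 11.7% at 4 wpt (10.3 to 13.3) and 23.5% at 8 wpt. The order of Pre-IS and 4 wpt thus turned, but their intervals overlapped. The cells left out were 10.9% of NK cells in Pre-IS and 20.7% of the deeper NK cells at 4 wpt. Counting the 41 proliferating NK/T cells at 4 wpt as NK cells gave 16.5% there. How many NK cells there were per volume of blood cannot be read from these shares.

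**Figure D1:**
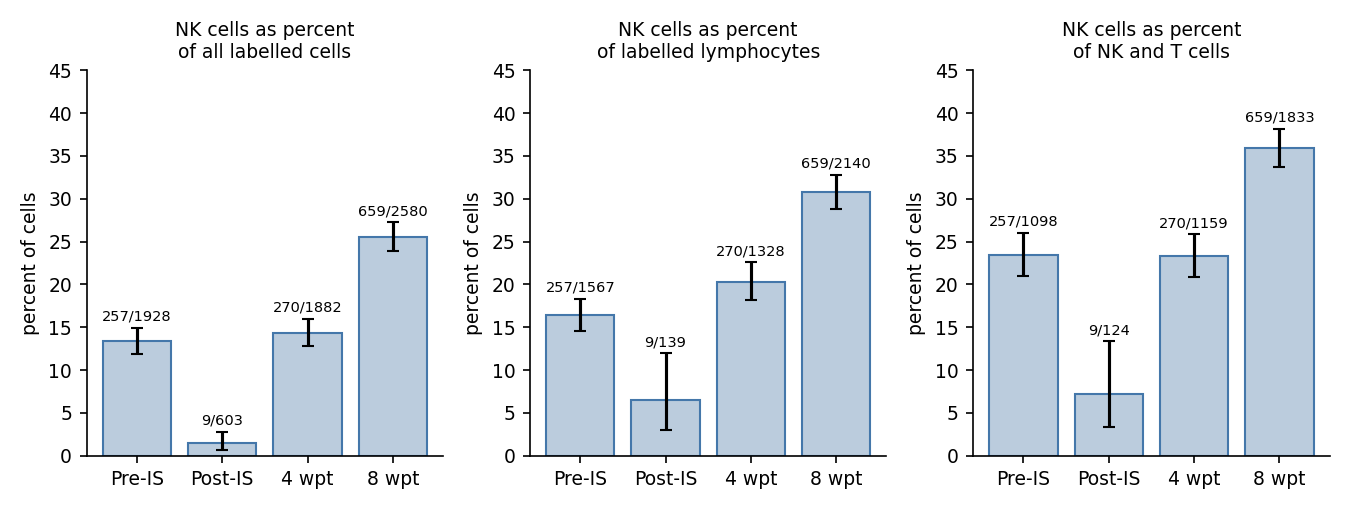
NK cells as a percent of all labelled cells, of labelled lymphocytes and of NK and T cells together, by library, with exact Clopper-Pearson 95% intervals of counting error. Post-IS is lowest and 8 wpt highest with each denominator.

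Among themselves, NK cells differed widely in granulysin. Cells were thinned to 1000 UMIs each, which left out 16, 5 and 31 shallower NK cells of the 3 libraries. The median NK cell had 12 granzyme B (GZMB) UMIs in Pre-IS, 10 at 4 wpt and 11 at 8 wpt. Granulysin (GNLY) had medians of 10, 11 and 10 UMIs, but the highest cells reached 44, 54 and 59. The variance of GNLY over its mean was 5.91 in Pre-IS, 6.79 at 4 wpt and 6.62 at 8 wpt, against a median of 1.03, 1.02 and 1.02 over the 1350, 1397 and 1451 genes with enough UMIs in the library. Granzyme B (2.40, 3.67 and 2.14), granzyme A (GZMA; 2.30, 2.23 and 2.29) and the chemokine CCL5 (2.80, 2.82 and 2.17) were also uneven. GZMA had no UMI in 52.7%, 55.5% and 51.3% of thinned NK cells. CCL5 had none in 39.4% and 46.4% in Pre-IS and at 4 wpt, and in 23.2% at 8 wpt.

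The CD16 gene FCGR3 was used to look inside the class, a choice made after its values were seen. It had a UMI in 135 of 257 NK cells in Pre-IS, 154 of 270 at 4 wpt and 338 of 659 at 8 wpt. Cells with and without one had like depth (medians of 1679, 3846 and 1797.5 UMIs against 1550, 4019.5 and 1682), and a cell without one may still express the gene. Thinned to equal depth, FCGR3 was detected in 39.0%, 26.4% and 33.4% of NK cells, against 52.5%, 57.0% and 51.3% unthinned. B cells, at a median of 1512, 3890 and 2134 UMIs, had it in 0 of 292, 0 of 108 and 1 of 172 thinned cells, with exact binomial upper bounds of 1.26%, 3.36% and 3.2%.

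NK cells without a FCGR3 UMI had more of several genes of less mature NK cells, fewer of them in Pre-IS. Of the list of such genes, 3 of 8 tested in Pre-IS, 7 of 11 at 4 wpt and 7 of 11 at 8 wpt were called higher in cells without FCGR3 and none lower (medians of 0.43, 0.87 and 0.88). Of all genes tested 9.3%, 8.46% and 7.81% were called higher and 10.1%, 10.9% and 8.18% lower, with medians of -0.01, -0.02 and -0.02. The interleukin-7 receptor gene IL7R was at 184 CPM without and 76.4 with FCGR3 in Pre-IS, 173 and 46.8 at 4 wpt, and 129 and 6.5 at 8 wpt. The ratios were 2.41 (1.34 to 4.50), 3.69 (2.37 to 5.90) and 19.9 (7.45 to 74.8). Among the genes that did not follow, the forkhead factor FOXP1 had ratios of 0.734, 0.795 and 1.03 and the adhesion receptor CD44 0.906, 1.03 and 1.30, with intervals that included 1. CAPG had 1 UMI without and 10 with FCGR3 in Pre-IS, too few to enter the count. Granzyme M (GZMM), which with the next gene stands in the granule list, is a protease of innate killer cells and was at 224 CPM without and 84.9 with FCGR3 in Pre-IS, 381 and 102 at 4 wpt, and 207 and 104 at 8 wpt, which is 2.64-, 3.73- and 1.99-fold. Cathepsin W (CTSW) was 1.65-, 2.57- and 2.38-fold higher without FCGR3, and the actin-binding gene COTL1 3.76-, 4.84- and 4.14-fold. Lymphotoxin beta (LTB) was 2.86- and 3.72-fold higher at 4 and 8 wpt, while its ratio of 1.42 in Pre-IS had an interval that included 1 (0.951 to 2.13). IL7R, GZMM, CTSW and COTL1 were thus higher in NK cells without a CD16 UMI in each library.

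Of the list of genes of mature NK cells, 3 of 9 tested in Pre-IS, 7 of 10 at 4 wpt and 2 of 10 at 8 wpt were lower without FCGR3. None was higher (medians of -0.43, -0.70 and -0.28), and 10.1%, 10.9% and 8.18% of all genes were lower. With NK cells bearing UMIs of another class left out, 4 of 8, 3 of 9 and 1 of 10 were lower. Some genes outside that list, such as GZMA and ITGB7, were also higher in the cells with a CD16 UMI. GZMA was at 1290 CPM with FCGR3 and 752 without in Pre-IS, 1328 and 603 at 4 wpt, and 1195 and 763 at 8 wpt. The ratios were 1.71 (1.41 to 2.10), 2.20 (1.92 to 2.54) and 1.57 (1.39 to 1.77). Integrin beta 7 (ITGB7), a subunit of a gut homing receptor, was 2.61-, 2.35- and 2.07-fold higher with FCGR3, and the fractalkine receptor CX3CR1 1.36-, 2.15- and 1.18-fold. GZMB was 1.30-, 1.39- and 1.14-fold and GNLY 1.14-, 1.23- and 1.26-fold higher. KLRD1 differed little (0.937, 0.999 and 0.931). The cells with and without CD16 UMIs thus had CD94 at a like level and differed more in GZMA than in GZMB or GNLY.

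IL7R is a T cell gene too, so CD3 genes were read in the same cells. CD3E was at 199 CPM without and 153 with FCGR3 in Pre-IS, 190 and 98.7 at 4 wpt, and 165 and 154 at 8 wpt. CD3G went the other way and was 1.94-, 2.63- and 1.57-fold higher with FCGR3. With NK cells bearing UMIs of another class left out, CD3E was at 108, 64.0 and 74.7 CPM without FCGR3, and the IL7R ratio was 5.17 (2.36 to 12.9), 4.26 (2.51 to 7.54) and 20.3 (6.62 to 101). The IL7R difference was as large without those cells.

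**Figure D2:**
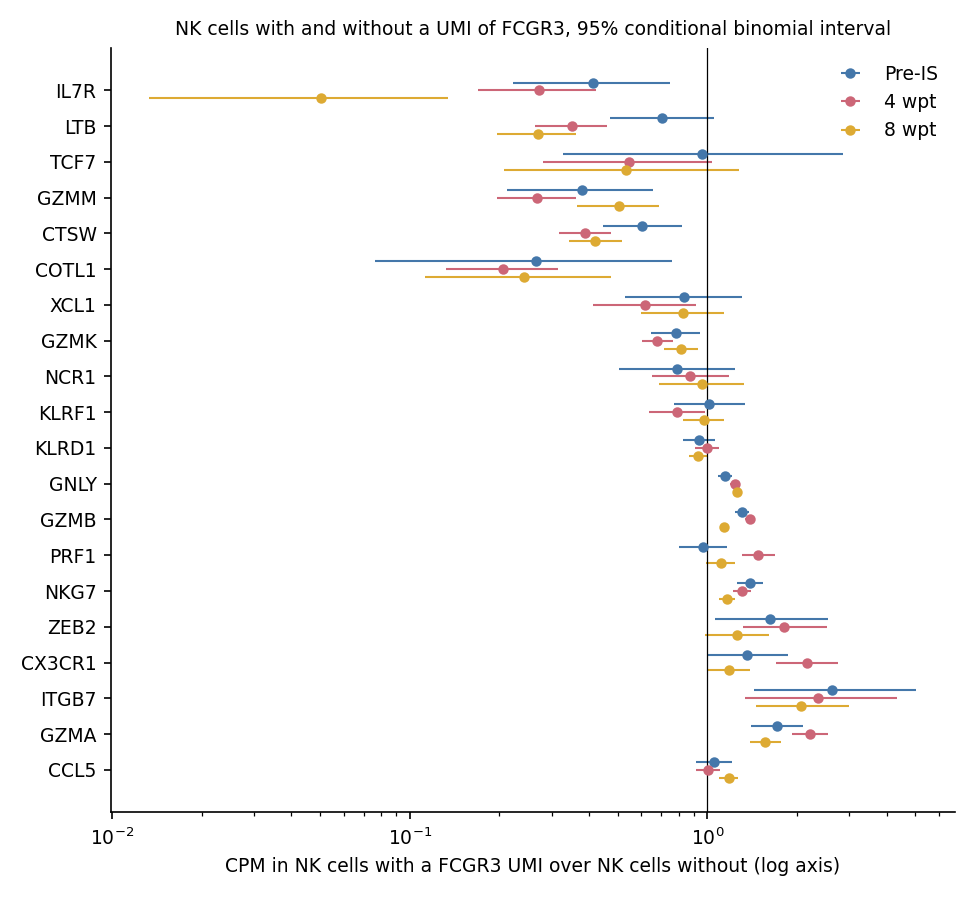
Ratio of CPM in NK cells with a FCGR3 UMI over NK cells without one, on a log axis, in 3 libraries, with conditional binomial 95% intervals. The genes come from the less mature, mature, granule, chemokine, homing and defining NK lists. GZMM, CTSW and GZMA are granule genes and ITGB7 is a homing gene. IL7R, GZMM, CTSW and COTL1 lie below 1 and GZMA and ITGB7 above 1 in each library.

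Gene levels were then compared between libraries. Genes with at least 20 UMIs over both libraries were used, and a gene was called when its ratio of CPM, with 0.5 UMIs added to each count, reached 1.5-fold. At 4 wpt against Pre-IS, 15.7% of 6715 genes were called higher and 9.75% lower. At 8 wpt against Pre-IS, 13% of 6890 genes were called higher and 7.63% lower, and at 8 wpt against 4 wpt 8.63% of 7574 were called higher and 8.79% lower. Most of these genes have few UMIs. With 2 UMIs added in place of 0.5, calls at 4 wpt against Pre-IS went from 1057 higher and 655 lower to 728 and 771, and those at 8 wpt against Pre-IS from 897 and 526 to 562 and 658. Genes with at least 50 UMIs kept more higher than lower calls, at 448 and 264, and 389 and 168. Over all genes tested, the median log2 ratio was 0.04, 0.06 and 0.02 in the 3 comparisons. The calls and medians of each list of genes are read against these values. The comparisons at 4 wpt and at 8 wpt over Pre-IS share the Pre-IS library, and those at 8 wpt share the 8 wpt library. The comparisons 4 wpt over Pre-IS and 8 wpt over 4 wpt share the 4 wpt library, on opposite sides of the ratio. An error of that library would shift their medians in opposite directions. Medians of opposite sign in that pair are therefore not independent observations.

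**Figure D3:**
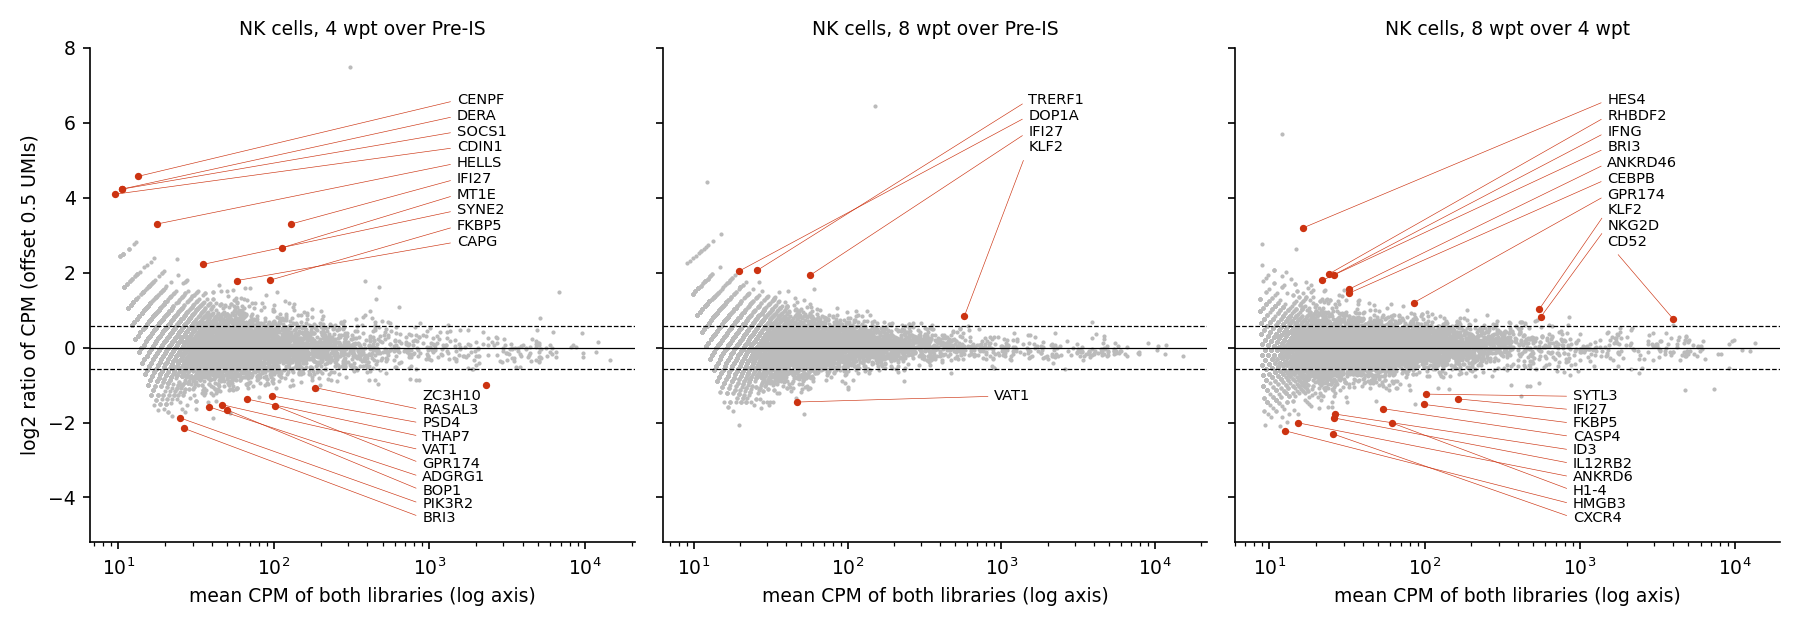
Log2 ratio of CPM in NK cells for each gene against its mean CPM (log axis) in 3 comparisons, with named genes marked. The spread is widest at low CPM, where a gene has few UMIs, and IFI27, MT1E and FKBP5 stand above their neighbours at 4 wpt over Pre-IS.

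The main killing genes differed little between the libraries. GZMB was at 12273 CPM in Pre-IS, 11206 at 4 wpt and 10804 at 8 wpt, a ratio at 4 wpt over Pre-IS of 1.10-fold lower (1.06 to 1.13). The pore-forming protein perforin (PRF1) was at 1086, 1082 and 1088 CPM, GNLY at 11466, 12753 and 12026, and GZMA at 1043, 1016 and 986. The largest ratio between any pair of libraries among these 4 genes was 1.14-fold, for GZMB. Granzyme K (GZMK) was at 1068, 1014 and 738 CPM, 1.45-fold lower at 8 wpt than in Pre-IS (1.29 to 1.62). Of 15 granule genes tested, 1 was called higher and 1 lower at 4 wpt over Pre-IS, 1 and 0 at 8 wpt over Pre-IS, and none in either direction at 8 wpt over 4 wpt, with medians of -0.01, -0.03 and -0.04. The called genes were FGFBP2, a secreted protein of cytotoxic cells (11 to 51 UMIs, 1.93-fold, 0.992 to 4.10), and the lysosomal protease cathepsin D (CTSD).

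Release genes differed little too. Of 14 genes of granule exocytosis, RAB27A alone was called, higher at 4 wpt and at 8 wpt. RAB27A, a small GTPase that docks granules at the membrane, was at 112 CPM in Pre-IS, 216 at 4 wpt and 187 at 8 wpt. It was 1.93-fold (1.41 to 2.68) and 1.66-fold (1.21 to 2.31) above Pre-IS. T cells had 1.62-fold more RAB27A in both comparisons, so its direction was the same in both lymphocyte classes.

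Several genes of the activating receptors and their adaptors were lower at 4 wpt, most of them by less than 1.5-fold. KLRF1 was at 502 CPM in Pre-IS, 326 at 4 wpt and 521 at 8 wpt, which is 1.54-fold lower at 4 wpt than in Pre-IS (1.29 to 1.83) and 1.60-fold higher at 8 wpt than at 4 wpt (1.40 to 1.83). The adaptor DAP10 (HCST) was at 2241, 1503 and 2148 CPM, 1.49-fold lower at 4 wpt (1.38 to 1.62). The adaptor DAP12 (TYROBP) was 1.29-fold, the CD3 zeta chain (CD247) 1.42-fold and FCGR3 1.47-fold lower at 4 wpt. These signalling genes thus shared a low point at 4 wpt, while NCR1 did not (195, 181 and 128 CPM, lowest at 8 wpt).

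Of 15 activating receptor and adaptor genes tested, 1 was called higher and 1 lower at 4 wpt, 1 and 2 at 8 wpt over Pre-IS, and 2 and 0 at 8 wpt over 4 wpt, with medians of -0.31, -0.06 and 0.15. The signalling lymphocyte receptor CD244 was the higher one in both comparisons with Pre-IS, on 9, 44 and 43 UMIs. NKG2D, a receptor for stress ligands that stood outside the list under this symbol, was at 516, 405 and 713 CPM and was 1.76-fold higher at 8 wpt than at 4 wpt (1.56 to 1.98). T cells had a low point in the same genes, with KLRF1 2.76-fold, TYROBP 1.55-fold and HCST 1.63-fold lower at 4 wpt than in Pre-IS. The low values at 4 wpt were thus not seen in NK cells alone.

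Most inhibitory receptors had few UMIs, with the exception of the lectin receptor KLRB1 at 1107, 1018 and 999.7 CPM and KLRD1. Of the 7 tested at 4 wpt over Pre-IS, 1 was called lower and none higher (median -0.12). At 8 wpt 2 of 7 were called lower, the MHC class I receptor gene LILRB1 (16 to 21 UMIs) and the killer immunoglobulin-like receptor KIR2DL4. KIR2DL4 was at 98.5 CPM in Pre-IS, 95.3 at 4 wpt and 63.6 at 8 wpt, 1.55-fold lower at 8 wpt (1.04 to 2.28). Reads of receptor genes in this family can be split among close copies, so these levels are uncertain. LAG3, an exhaustion marker, had 1, 0 and 1 UMIs, at or below the floor of 3 counts (6.88, 2.86 and 2.51 CPM).

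Interferon gamma was low in blood NK cells at all times and highest at 8 wpt. IFNG had 10 UMIs in Pre-IS, 11 at 4 wpt and 50 at 8 wpt, or 22.9, 10.5 and 41.8 CPM. It was 3.99-fold higher at 8 wpt than at 4 wpt (2.05 to 8.50), and its interval against Pre-IS included 1 (1.83-fold, 0.915 to 4.04). T cells had 2.66-fold more IFNG at 8 wpt than at 4 wpt. The death ligand TRAIL (TNFSF10) went the other way, with 18.3, 19.1 and 5.02 CPM, 3.80-fold lower at 8 wpt than at 4 wpt on 20 and 6 UMIs (1.47 to 11.6). Of 7 effector cytokine and death ligand genes tested at 8 wpt over 4 wpt, 2 were called higher and 1 lower.

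Of 4 chemokine genes tested, 2 were called lower at 4 wpt over Pre-IS (median -0.40) and 1 higher at 8 wpt over 4 wpt (median 0.46). XCL1, which draws dendritic cells, was at 195 CPM in Pre-IS, 104 at 4 wpt and 138 at 8 wpt, 1.87-fold lower at 4 wpt (1.40 to 2.51). CCL4L1, an inflammatory chemokine with close gene copies, was at 646, 401 and 663 CPM, 1.61-fold lower at 4 wpt (1.38 to 1.88) and 1.65-fold higher at 8 wpt than at 4 wpt (1.47 to 1.86). CCL5 was at 1916, 1778 and 2532 CPM. XCL1 and CCL4L1 were thus lower at 4 wpt, while CCL5 and CCL3 were not called, and CCL4L1 was also lower in T cells then, by 2.83-fold.

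Homing genes moved in both directions. Of 18 tested, 3 were called higher and 2 lower at 4 wpt over Pre-IS (median -0.22). The bone marrow retention receptor CXCR4 had 7 UMIs in Pre-IS, 45 at 4 wpt and 10 at 8 wpt, or 16.0, 42.9 and 8.37 CPM. In thinned cells CXCR4 was found in 1.24%, 4.91% and 0.796% of NK cells (2.33%, 12.2% and 1.37% unthinned), and in 1.71%, 2.78% and 0.581% of B cells. The intervals of the NK and B cell shares overlapped in each library, so the NK share could not be told from the B cell share. Whether the B cell share is background was not tested, and no fold is given. The gut homing integrin chain ITGB7 was at 140, 66.7 and 126 CPM, 2.10-fold lower at 4 wpt (1.46 to 3.0), while in T cells it was 1.01-fold lower. The egress receptor S1PR5 was at 183, 118 and 153 CPM, 1.55-fold lower at 4 wpt (1.16 to 2.07).

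Several genes of less mature NK cells were lower at 8 wpt than at 4 wpt. Of 11 tested, 5 were called lower and none higher at 8 wpt over 4 wpt (median -0.46), and 2 were higher and 1 lower at 4 wpt over Pre-IS (median 0.05). IL7R was at 126, 101 and 66.1 CPM, 1.91-fold lower at 8 wpt than in Pre-IS (1.33 to 2.72). A pair of actin-binding genes was highest at 4 wpt. These were COTL1 at 48.1, 129 and 45.2 CPM and CAPG at 25.2, 90.6 and 42.7 CPM, 2.67-fold (1.68 to 4.46) and 3.59-fold (1.92 to 7.44) above Pre-IS. CAPG was at 861 to 1020 CPM in CD14+ monocytes, above NK cells at each time. In T cells the medians of the same 11 genes were -0.25 at 8 wpt over 4 wpt and 0.04 at 4 wpt over Pre-IS. The lower median at 8 wpt over 4 wpt was thus not seen in NK cells alone. A lower level in the NK class cannot be told apart from fewer cells that carry the gene.

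Of 12 genes of mature NK cells, 3 were called higher and 1 lower at 8 wpt over 4 wpt (median 0.35), and 1 higher and 2 lower at 4 wpt over Pre-IS (median -0.31). In T cells the medians of the same 12 genes were 0.56 and -0.64, so these shifts were not particular to NK cells. T-bet (TBX21), the factor of the mature state, was at 112, 78.2 and 145 CPM, 1.85-fold higher at 8 wpt than at 4 wpt (1.42 to 2.44). The adhesion receptor ADGRG1 was at 57.3, 19.1 and 30.1 CPM, 3.01-fold lower at 4 wpt than in Pre-IS (1.60 to 5.71), against 2.30-fold lower in T cells. EOMES, the related T-box factor, was level at 252, 270 and 284 CPM, and so was the NK factor ID2 at 463, 459 and 453. The quiescence and homing factor KLF2 was at 413, 360 and 738 CPM, 1.79-fold above Pre-IS (1.52 to 2.11) and 2.05-fold above 4 wpt (1.81 to 2.32) at 8 wpt. T cells had 1.47-fold and 1.43-fold more KLF2 in the same comparisons. Of 22 NK transcription factors 4 were called higher and 1 lower at 4 wpt over Pre-IS, among them ID3, an inhibitor of E proteins (3 to 43 UMIs, 5.96-fold, 1.91 to 30.0).

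Among the 10 leading genes higher at 4 wpt, IFI27, MT1E and FKBP5 had the most UMIs there. IFI27, an interferon-induced mitochondrial protein gene, was at 22.9 CPM in Pre-IS, 236 at 4 wpt and 91.2 at 8 wpt. It was 10.3-fold higher at 4 wpt (5.52 to 21.8), 3.98-fold higher at 8 wpt than in Pre-IS (2.08 to 8.53) and 2.59-fold lower at 8 wpt than at 4 wpt (2.06 to 3.28). In thinned cells IFI27 was detected in 2.07% of NK cells in Pre-IS, 17.7% at 4 wpt (13.3 to 22.9) and 8.44% at 8 wpt, against 3.11%, 42.2% and 13.1% unthinned. It was detected in 0.342%, 2.78% and 1.74% of thinned B cells. The NK share was above the B cell share at each time. In Pre-IS their intervals overlapped (0.677 to 4.77 and 0.00867 to 1.89), so the Pre-IS share could not be told from that of B cells. The folds over Pre-IS rest on that library. The NK level of IFI27 at 4 wpt was above that of any other label. T cells followed the same course, 4.79-fold higher at 4 wpt.

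Few other interferon genes moved as far. Of 26 type I interferon-induced genes tested, 8 were called higher and none lower at 4 wpt over Pre-IS, with a median of 0.37. At 8 wpt over Pre-IS 3 of 22 were higher and 2 lower (0.13), and at 8 wpt over 4 wpt 1 of 27 was higher and 8 lower (-0.15). The exonuclease ISG20 was at 218, 340 and 199 CPM, 1.56-fold higher at 4 wpt (1.24 to 1.98), and the RNA sensor cofactor DDX60 was 2.0-fold higher (1.16 to 3.68). ISG15, with 4, 22 and 12 UMIs, had an interval that included 1. IFI6 was level at 209, 217 and 217 CPM. The list median in T cells was 0.39, 0.21 and -0.25 in the same comparisons.

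FKBP5, a co-chaperone of the glucocorticoid receptor that the receptor itself induces, was at 41.3 CPM in Pre-IS, 147 at 4 wpt and 51.0 at 8 wpt. It was 3.56-fold higher at 4 wpt than in Pre-IS (2.18 to 6.16) and 2.88-fold lower at 8 wpt than at 4 wpt (2.13 to 3.94). FKBP5 was found in 4.15%, 15.1% and 5.57% of thinned NK cells (7.0%, 38.9% and 8.04% unthinned), against 2.05%, 4.63% and 2.33% of thinned B cells. The NK and B cell intervals overlapped in Pre-IS (2.01 to 7.50 and 0.758 to 4.42) and at 8 wpt (3.91 to 7.67 and 0.637 to 5.85). At 4 wpt they did not overlap. The Pre-IS and 8 wpt shares could thus not be told from those of B cells, and each FKBP5 fold above rests on Pre-IS or 8 wpt. T cells had 1.78-fold more FKBP5 at 4 wpt. Of 13 glucocorticoid-induced genes tested, 4 were called higher and 1 lower at 4 wpt over Pre-IS (median 0.41), and none higher and 4 lower at 8 wpt over 4 wpt (median -0.27). The higher ones were FKBP5, the phosphatase DUSP1 (18.3, 53.4 and 34.3 CPM), CXCR4 (share not separable from that of B cells, as above) and annexin A1 (ANXA1, at 413, 665 and 552 CPM). TSC22D3 was at 385, 561 and 387 CPM, short of 1.5-fold. Over the genes tested in both classes the T cell medians were 0.16 at 4 wpt over Pre-IS and -0.50 at 8 wpt over 4 wpt.

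The metallothionein MT1E, which binds zinc and copper, was at 29.8 CPM in Pre-IS, 195 at 4 wpt and 91.2 at 8 wpt, 6.56-fold higher at 4 wpt (3.75 to 12.5). T cells had more of it and differed less (302, 403 and 379 CPM, 1.33-fold at 4 wpt). In thinned NK cells MT1E was found in 2.90% in Pre-IS (1.18 to 5.89) and 9.81% at 4 wpt (6.51 to 14.0). Thinned B cells had it in 2.05% (0.758 to 4.42) and 1.85% (0.225 to 6.53). The intervals overlapped in both libraries, narrowly at 4 wpt, so the NK shares could not be told from those of B cells. The highest NK cell at 4 wpt held 17 of the 205 UMIs. CD14+ monocytes held MT1E at 1106, 1008 and 1249 CPM, above NK cells at each time, and their part in the NK level was not tested. The suppressor of cytokine signalling SOCS1 had 0 UMIs in Pre-IS, 22 at 4 wpt and 14 at 8 wpt. It was 3.05-fold higher at 4 wpt with the Pre-IS count set at a floor of 3, and its interval reached down to 2.28-fold. The interleukin-12 receptor chain IL12RB2 was at 25.2, 41.0 and 10.9 CPM and 3.77-fold lower at 8 wpt than at 4 wpt (1.99 to 7.64).

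**Figure D4:**
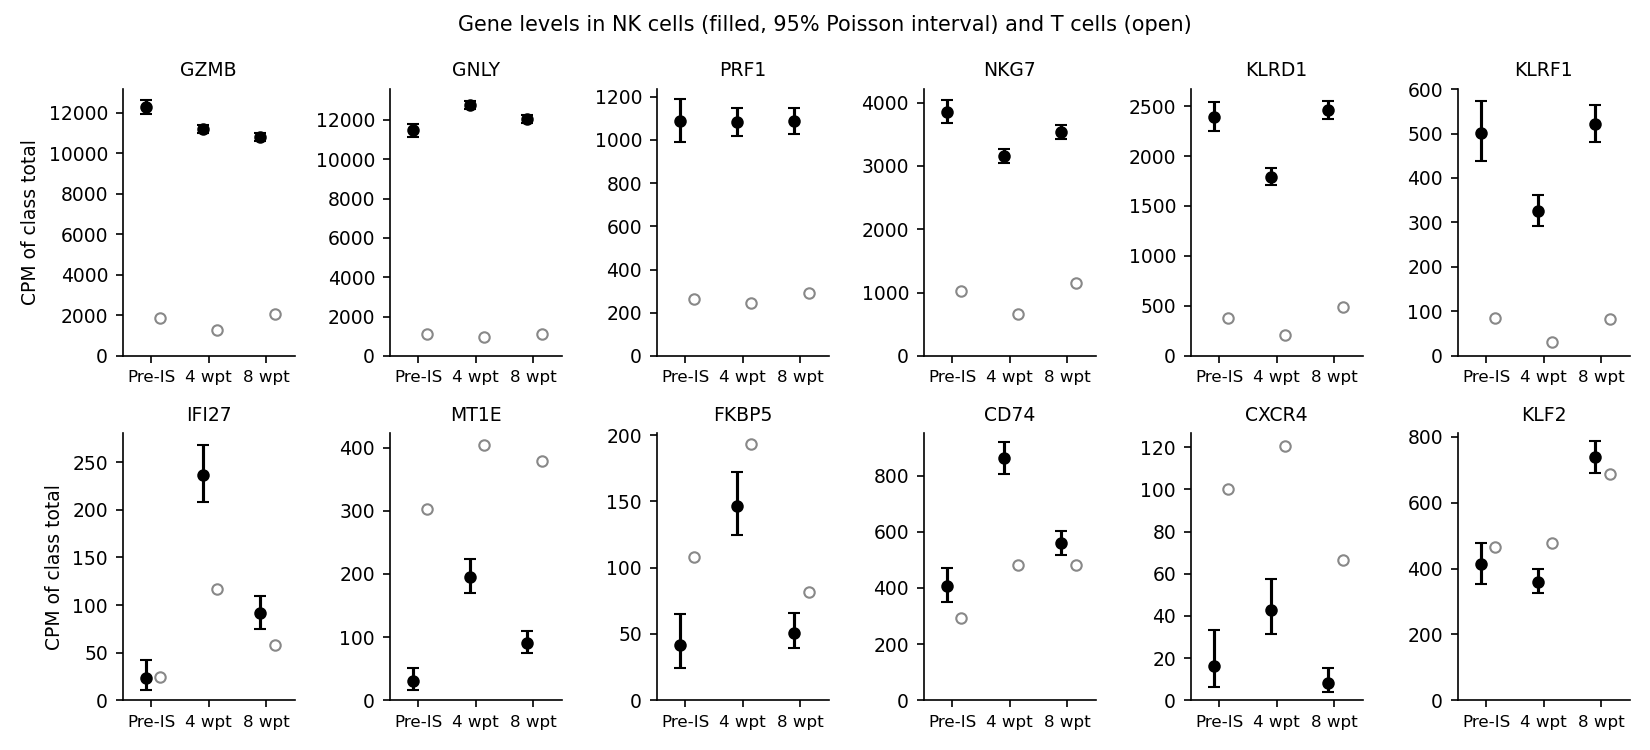
CPM of 12 genes in NK cells (filled, with 95% Poisson intervals) and T cells (open) in 3 libraries, on linear axes from 0. GZMB, GNLY and PRF1 are level in NK cells, IFI27, MT1E and FKBP5 are highest at 4 wpt, and KLF2 is highest at 8 wpt.

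Division genes were scarce in NK cells and highest at 4 wpt. At least 2 of 11 cell cycle genes had UMIs in 1 of the Pre-IS NK cells (0.389%), 22 at 4 wpt (8.15%) and 11 at 8 wpt (1.67%). T cells had such cells at 0.238%, 4.50% and 0.426%. The deeper 4 wpt cells offer more UMIs for this count, and it was not thinned. The proliferation antigen MKI67 was at 6.88, 27.6 and 9.20 CPM, a ratio at 4 wpt over Pre-IS of 4.02 (1.25 to 20.6) on 3 and 29 UMIs. The kinetochore gene CENPF had 0, 28 and 13 UMIs. It was 3.88-fold higher at 4 wpt against a floor of 3 counts, and its interval reached down to 2.95-fold. The helicase HELLS had 1, 35 and 33 UMIs, a ratio of 14.6 (2.45 to 591). Of 14 proliferation genes tested, 5 were called higher and none lower at 4 wpt over Pre-IS (median 0.34), and none higher and 6 lower at 8 wpt over 4 wpt (median -0.39). The authors' separate label for proliferating NK/T cells held 8, 2, 41 and 30 cells, of which 1, 0, 6 and 7 had NK but no CD3 gene UMIs.

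Cell death genes included members of opposite function. Of 18 tested at 4 wpt over Pre-IS, 6 were called higher and 2 lower (median 0.24), and of 19 at 8 wpt over 4 wpt 2 were higher and 6 lower (median -0.24). BAK1 and BCL2L11 promote cell death. BAK1 had 8, 48 and 51 UMIs and was 2.5-fold higher at 4 wpt (1.17 to 6.11), and BCL2L11 had 1, 24 and 12 UMIs. BCL2, which opposes them, had 5, 20 and 12 UMIs and an interval that included 1. CASP4, an inflammatory caspase, was at 34.4, 81.0 and 25.9 CPM and 3.12-fold lower at 8 wpt than at 4 wpt (2.05 to 4.88).

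In all, 29 genes were eligible as higher and 17 as lower at 4 wpt over Pre-IS with an interval wholly beyond 1.5-fold, and the leading 10 of each are named. The higher ones not yet described were DERA (0 to 22 UMIs) and CDIN1 (0 to 20 UMIs), with SYNE2, a nuclear envelope protein gene (5.07-fold, 2.06 to 16.2). Against a floor of 3 counts DERA was 3.05-fold and CDIN1 2.77-fold higher, with lower interval bounds of 2.28- and 2.05-fold. Among the lower ones, the lysophosphatidylserine receptor GPR174 was at 151, 51.5 and 119 CPM, 2.94-fold lower at 4 wpt (2.02 to 4.29). T cells had 2.08-fold less. ZC3H10 was at 3108, 1550 and 2079 CPM, 2.01-fold lower at 4 wpt in NK cells and 2.01-fold in T cells. BRI3 (4.57-fold), PIK3R2 (3.72-fold), BOP1 (3.17-fold), VAT1 (2.89-fold), THAP7 (2.59-fold), PSD4 (2.45-fold) and RASAL3 (2.09-fold) completed the lower genes with ADGRG1. PSD4 was at 57.8 and 62.1 CPM in T cells in Pre-IS and at 4 wpt, where it was at 138 and 56.2 CPM in NK cells.

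At 8 wpt over Pre-IS only 4 genes were eligible as higher and 1 as lower, against 29 and 17 at 4 wpt. They were IFI27, KLF2, TRERF1 (4 to 51 UMIs, 4.65-fold, 1.71 to 17.7) and DOP1A (3 to 39 UMIs, 4.75-fold, 1.51 to 24.0), with VAT1 lower (2.74-fold, 1.60 to 4.70). The 5% rule depends on UMIs per cell, and 6224 genes passed the other naming rules at 4 wpt over Pre-IS against 4534 at 8 wpt over Pre-IS. Over all genes tested, without these rules, intervals lay wholly beyond 1.5-fold for 39 higher and 25 lower of 6715 at 4 wpt over Pre-IS. At 8 wpt over Pre-IS these were 11 and 3 of 6890. With 1 library per group, whether NK cells at 8 wpt were closer to Pre-IS was not tested.

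At 8 wpt over 4 wpt, 15 genes were eligible as higher and 25 as lower. HES4, a transcriptional repressor gene, had 3 UMIs at 4 wpt and 36 at 8 wpt, a ratio of 10.5 (3.33 to 53.5), and CEBPB was 2.78-fold higher (1.61 to 5.02). The surface antigen CD52 was at 4272 CPM in Pre-IS, 2962 at 4 wpt and 5023 at 8 wpt, 1.70-fold higher at 8 wpt than at 4 wpt (1.62 to 1.77), against 1.40-fold in T cells. RHBDF2, ANKRD46, BRI3 and GPR174 were 4.04-, 2.99-, 3.60- and 2.31-fold higher, beside IFNG, KLF2 and NKG2D. GPR174 and BRI3, among the lower genes at 4 wpt, were thus near their Pre-IS levels at 8 wpt (119 and 34.3 CPM against 151 and 43.5).

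The lower genes at 8 wpt over 4 wpt were led by the linker histone H1-4, at 32.1, 99.1 and 24.3 CPM, 4.09-fold lower (2.69 to 6.40), and 3.06-fold lower in T cells. FKBP5, IFI27, CASP4, IL12RB2 and ID3 followed, beside CXCR4, with the limits given above for FKBP5 and CXCR4. Then came HMGB3 (5.01-fold), ANKRD6 (4.23-fold) and SYTL3 (2.37-fold), a granule trafficking gene at 75.6, 143 and 60.2 CPM. H1-4, FKBP5, CASP4, ID3, HMGB3 and SYTL3 thus had their highest level at 4 wpt and were close to or below Pre-IS at 8 wpt, with the exception of ID3 (6.88 against 11.7 CPM).

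Of the remaining lists, cytokine receptor and JAK-STAT genes had 5 higher and 0 lower of 24 at 4 wpt over Pre-IS (median 0.19), and calcineurin, NFAT and mTOR pathway genes 5 and 1 of 21 (0.32). NFATC2 was at 50.4, 92.5 and 67.8 CPM, while FKBP1A, which encodes the protein bound by tacrolimus and sirolimus, was level at 303, 317 and 346. Immediate early and heat shock genes had 3 higher and 1 lower of 15 (0.36). Glycolysis had 1 and 0 of 14 (0.05) and the respiratory chain 2 and 1 of 34 (-0.04), with medians near that of all genes. MHC class II presentation genes had 2 higher and 0 lower of 8 (0.36). The invariant chain CD74 was at 408, 862 and 559 CPM, 2.11-fold higher at 4 wpt (1.80 to 2.49). B cells held CD74 at 23920, 21073 and 21640 CPM, far above NK cells, and the part of RNA from other cells in the NK level was not tested.

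**Figure D5:**
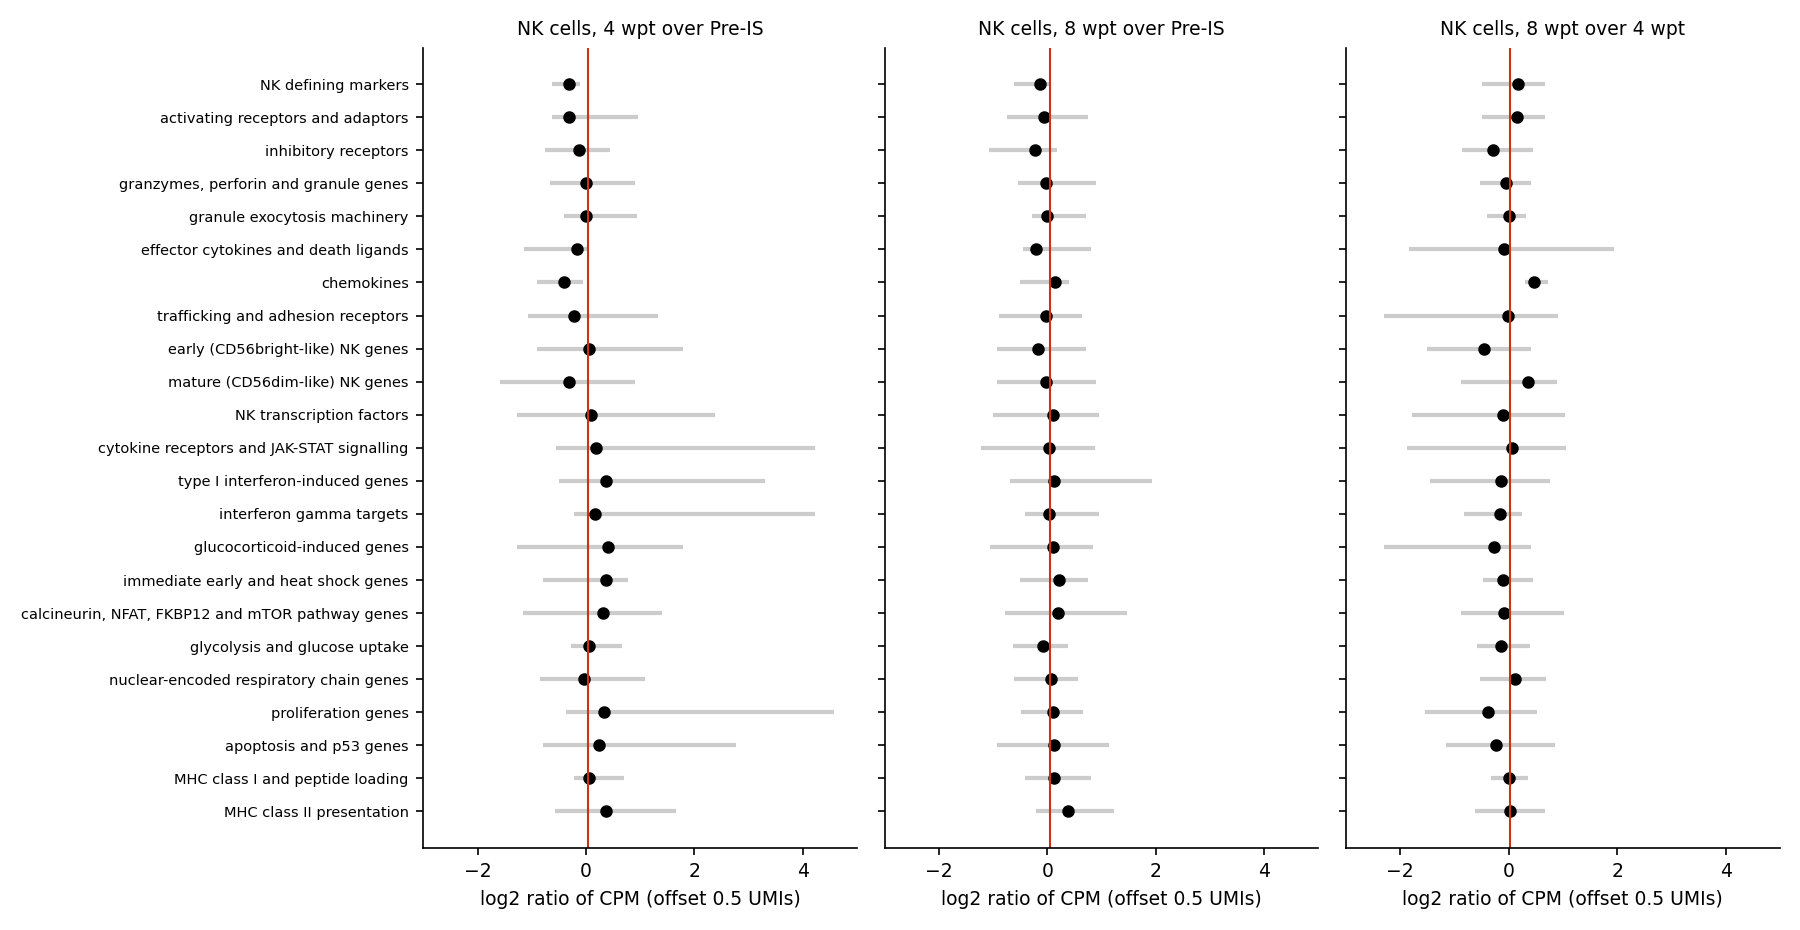
Median log2 ratio of CPM of the genes tested in each list (points) and their whole range (grey bars), in 3 comparisons of NK cells, beside a vertical line at the median of all genes tested. The medians of granule and exocytosis lists lie near the line, while those of glucocorticoid and interferon lists lie to its right at 4 wpt over Pre-IS and to its left at 8 wpt over 4 wpt. Both of these comparisons use the 4 wpt library, on opposite sides of the ratio.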

How the data were processed

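Peripheral blood mononuclear cells were measured in 4 libraries with the 10x Genomics 5' V1 kit and paired 150 bp reads, per the labels' protocols. Tools listed in the submitters' processing notes are Cell Ranger (3.1.0) and Seurat (3.2.3), beside the build Mmul_10, with no role given. The authors deposited, for each library, raw UMI counts for 15354 gene rows and a cell type label per barcode, without normalization. How cells and genes were filtered and doublets treated is not given in the sources used here, and no doublet caller was run. Of 2559 rows with an identifier, 404 were named from a reference table.

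UMIs were summed over NK-labelled cells per library and scaled to CPM. Ratios have exact conditional binomial intervals, levels Poisson intervals and shares Clopper-Pearson intervals (95%). A gene with 0 UMIs in 1 library is set at a floor of 3 counts, which left every list median given as it was. The scripts were tested on simulated counts first. Labels were taken as they stand. Up to 10 higher and 10 lower genes per comparison were named. Their interval had to lie wholly beyond 1.5-fold and its inner bound set the rank, with UMIs in at least 5% of NK cells of 1 library. Unnamed rows, antigen receptor, globin, mitochondrial and ribosomal genes were not eligible, nor were genes below 10% of their highest label in both libraries. Members of 34 lists may also be named.

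The members, lists and rules were chosen with earlier results of these data known. Alternatives were TMM and median-of-ratios scaling, cells weighted equally, cells thinned to 1000 UMIs, cells with UMIs of another class left out, totals that omit globin, immunoglobulin, mitochondrial and ribosomal genes, a minimum of 50 UMIs, no minimum, 2 UMIs as the offset, and other share denominators. Added after the data were seen were the FCGR3 split and the removal of NK cells with over 10 hemoglobin UMIs. Python 3.11.15, numpy 2.4.6, scipy 1.17.1, pandas 2.3.3, matplotlib 3.10.9, R 4.3.3 and edgeR 4.0.16 (TMM factors alone) were used. Some results are not reported here.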

Additional observations from a re-analysis of the deposited data

How the results depend on the processing

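None of the named gene ratios changed sign under any alternative run, but these genes were named because their intervals lay wholly beyond 1.5-fold. Their stability is therefore no independent check. No list median reached 1.5-fold, so none was checked for a change of sign. Balances of higher against lower calls and 1 order of shares did turn. Among lymphocytes the NK share was 16.4% in Pre-IS, 6.47% in Post-IS, 20.3% at 4 wpt and 30.8% at 8 wpt. Without NK cells bearing UMIs of another class it was 12.1% in Pre-IS, 11.7% at 4 wpt (then below Pre-IS) and 23.5% at 8 wpt, and with proliferating cells added 16.5% at 4 wpt. Counts of genes called moved with the minimum, which sets how many genes are tested. With at least 50 UMIs they were 448 higher and 264 lower at 4 wpt over Pre-IS, 389 and 168 at 8 wpt over Pre-IS, and 317 and 275 at 8 wpt over 4 wpt, where 654 and 666 are reported. With no minimum they were 2180 and 2056, 1983 and 2088, and 1937 and 2206. Thinned cells gave 544 and 429 at 4 wpt over Pre-IS, with fewer genes tested. An offset of 2 UMIs gave 728 and 771 at 4 wpt over Pre-IS and 562 and 658 at 8 wpt over Pre-IS. More genes were thus lower than higher at 8 wpt over Pre-IS with that offset or no minimum, and at 4 wpt over Pre-IS with that offset; thinned cells (749 and 664) and NK cells without UMIs of another class (699 and 643) turned the balance at 8 wpt over 4 wpt, as the minimum of 50 did. All 10 higher and 10 lower genes named at 4 wpt over Pre-IS, and all 5 at 8 wpt over Pre-IS, stayed past 1.5-fold in each alternative run, as did 9 of 10 higher and 10 of 10 lower at 8 wpt over 4 wpt, NKG2D being the exception (lowest log2 ratio 0.51). No paired analysis was possible because each group is 1 library, and no replicate could be left out. Depth limits genes of few UMIs: 3 counts stood for 6.88 CPM in Pre-IS, 2.86 at 4 wpt and 2.51 at 8 wpt.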

Other observations

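Carbonic anhydrase 1 (CA1), best known from red cells, was found in NK cells and hardly in T cells. It had 15 UMIs in 14 NK cells in Pre-IS, 61 in 48 cells at 4 wpt and 36 in 31 cells at 8 wpt, or 34.4, 58.1 and 30.1 CPM. T cells held CA1 at 0, 0.946 and 0.448 CPM, and proliferating NK/T cells at 41.7, 120 and 135. Of the 61 UMIs at 4 wpt 1 lay in the 2 NK cells with over 10 hemoglobin UMIs, so CA1 lay in other NK cells than most of the hemoglobin. The row named for the embryonic globin HBE1 had 1, 642 and 360 UMIs in NK cells, of which 638 at 4 wpt and 268 at 8 wpt lay in 1 cell of each library. The globin genes HBB and HBD had no row under those symbols. Whether the HBE1 row holds reads of another globin was not tested, so embryonic globin expression cannot be read from it.

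A row without a symbol, ENSMMUG00000055690, was the most uneven of the 1121 genes ranked among NK cells, with a variance over mean of 11.7 in Pre-IS, 50.8 at 4 wpt and 31.8 at 8 wpt. It was at 3600, 9996 and 4630 CPM in NK cells and 2.78-fold higher at 4 wpt than in Pre-IS (2.63 to 2.93). T cells followed the same course at 4273, 12840 and 5164 CPM. The row that best marks NK cells, ENSMMUG00000050862, was 1.51-fold higher at 8 wpt than at 4 wpt (1.44 to 1.57). No sequence or function is assigned to either row here.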
